A study of Mus musculus with 2 samples.

Results

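The sulfotransferases and UDP-glycosyltransferases, named Sult and Ugt in the mouse, were examined in liver cells of mice with and without hepatocyte Cebpa. All rows of the deposited gene table whose symbol starts with Sult or Ugt followed by a digit were taken, which gave 43 of 32285 genes: 21 Sult and 22 Ugt. The rule uses symbols and no measured value, though it was set with earlier results of these data known. Droplet single-cell RNA sequencing had been carried out on 2 liver samples, labelled Cebp KO and Cebp WT, with 1 sample for each genotype. All mice had received a diet of 40% HFCFD, rich in fat, cholesterol and fructose, for 2 weeks, which is used to bring on steatohepatitis. In the study's methods, mice with Cebpa fl/fl alleles were crossed with Albumin-cre or Albumin-ERT2-cre lines on a C57BL/6N background, so that the albumin promoter directed the deletion to hepatocytes. The labels do not name the Cre line of the sequenced knockout. The study describes the single-cell data together with livers of the Albumin-cre line on the same diet and does not name a line for the sequenced samples themselves. The study's methods state that its mice were all male. The sources used here give neither the age of the mice nor whether animals were pooled.

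Cytosolic sulfotransferases move a sulfate group from the donor PAPS onto hydroxyl groups of steroids, bile acids, thyroid hormones, catecholamines and phenols. UDP-glucuronosyltransferases sit in the membrane of the endoplasmic reticulum and add glucuronic acid from UDP-glucuronic acid to bilirubin, steroids, bile acids and drugs. Both reactions make their substrates more soluble in water, so that they can leave the hepatocyte in bile or blood, and the liver is the main site of both.

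Both libraries were joined in 1 matrix, in which each barcode ends in the suffix 1 or 2, and the labels link neither suffix to a genotype. The libraries are called library 1 and library 2 after that suffix, and were left unassigned. They held 17313 and 15003 barcodes with 60048646 and 52355243 UMIs (unique molecular identifiers, each marking 1 captured RNA molecule), and 81 barcode sequences occurred in both. The median mitochondrial share over all barcodes was 4.07% in library 1 and 41.3% in library 2. After droplets with fewer than 500 UMIs, fewer than 200 genes or over 25% mitochondrial UMIs were left out, 11617 and 6088 remained. Droplets in which no other cell type passed its marker gate, and in which at least 6% of UMIs came from 10 hepatocyte genes, were called hepatocyte-like, and those of at least 5000 UMIs deep. This left 550 and 514 deep hepatocyte-like cells, with a median of 27087 and 13328 UMIs. Near that gate, 24 and 25 droplets of such depth lay between 5 and 6% and 23 in each library between 6 and 7%. All 10 hepatocyte markers were detected in them in both libraries, led by albumin (Alb) at 39138 and 42048 CPM (UMIs per 1000000 UMIs), although none of the 10 was among the 10 genes with the highest fold over other types. The lists of the 13 other cell types were low in these cells, the highest being the monocyte list, which summed to 689 and 611 CPM, and each of the others summed to 366 CPM or less. Cldn4 (cholangiocyte) and Tnfrsf17 (plasma) were among the markers at 0 in both. Cebpa itself, the deleted gene, was at 1.33 CPM (19 UMIs) in library 1 and 109 CPM (857 UMIs) in library 2. Brackets below hold exact Poisson 95% intervals, and all intervals cover counting error only. With 1 library each and no replicates there was no test, and differences between the libraries hold for these libraries only.

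Of the 43 genes, 14 had a level of 20 CPM or more in the deep hepatocyte-like cells of 1 or both libraries, namely 5 Sult and 9 Ugt. The remaining 29 were at or below 8.07 CPM in library 1 and 8.25 CPM in library 2, with medians of 0.0702 and 0 CPM. Summed over the family, Ugt reached 1385 (1366 to 1405) and 1151 (1127 to 1175) CPM, and Sult 495 (483 to 507) and 517 (501 to 533) CPM. The Ugt sum was thus higher in library 1, and the Sult sums overlapped. Each UMI marks the 3′ end of 1 RNA molecule, so CPM were not divided by gene length.

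The promoters of 4 members are shown because these genes carry the results that follow. Ugt2b36 had the highest level in library 1, Ugt2b38 and Sult1d1 differed most between the libraries among members of at least 20 CPM, and Sult2a8 varied most with zonation. The 250 bases before the transcription start were taken from RefSeq on GRCm38.p6. Those of Ugt2b36 lie at chr5:87092556-87092805, of Ugt2b38 at chr5:87424204-87424453, of Sult1d1 at chr5:87569007-87569256 and of Sult2a8 at chr7:14446588-14446837. All are on the minus strand and are written 5′ to 3′ along the gene, with matches to the C/EBP motif TTGCNNAA on either strand in capitals.
Ugt2b36 promoter: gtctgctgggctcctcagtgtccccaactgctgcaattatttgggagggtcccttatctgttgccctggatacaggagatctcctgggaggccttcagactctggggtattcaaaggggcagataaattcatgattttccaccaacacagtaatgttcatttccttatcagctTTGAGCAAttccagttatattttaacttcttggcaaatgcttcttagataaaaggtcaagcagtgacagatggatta
Ugt2b38 promoter: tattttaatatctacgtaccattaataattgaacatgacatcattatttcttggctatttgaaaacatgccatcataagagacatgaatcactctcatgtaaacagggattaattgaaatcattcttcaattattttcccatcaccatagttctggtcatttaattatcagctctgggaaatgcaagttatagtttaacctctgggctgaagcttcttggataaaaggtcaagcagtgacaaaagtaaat
Sult1d1 promoter: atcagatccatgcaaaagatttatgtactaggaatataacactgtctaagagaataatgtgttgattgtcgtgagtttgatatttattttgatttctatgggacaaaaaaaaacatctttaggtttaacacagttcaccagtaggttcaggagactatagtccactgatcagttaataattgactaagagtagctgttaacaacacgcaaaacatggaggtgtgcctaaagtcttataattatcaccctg
Sult2a8 promoter: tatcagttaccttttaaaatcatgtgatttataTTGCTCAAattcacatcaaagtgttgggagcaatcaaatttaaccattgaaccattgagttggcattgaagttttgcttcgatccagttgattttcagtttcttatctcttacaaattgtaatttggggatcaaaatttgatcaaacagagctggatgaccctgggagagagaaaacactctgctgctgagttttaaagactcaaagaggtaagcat

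The C/EBP match began 77 bases before the RefSeq start in Ugt2b36 and 217 bases before it in Sult2a8. In GENCODE M21, Sult2a8 starts at chr7:14446769 and Sult1d1 at chr5:87569027, both inside the stretches shown. Most of the Sult2a8 stretch and a part of the Sult1d1 stretch thus lie within the annotated gene. Ugt2b38 and Sult1d1 held no match. The longest run of bases shared by any pair of the 4 promoters was 22 bases, between Ugt2b36 and Ugt2b38, and began 31 bases before the start in both. Shared runs of the other pairs were 7 to 11 bases long. A promoter was found for 37 of the 43 members. Among them 6 (16.2%) held the C/EBP letters, against 9.56% of 32851 promoters, and these were Ugt2b36, Ugt2b5, Ugt2a2, Sult2a3, Sult2a4 and Sult2a8. The HNF4 letters CAAAGTCCA were in none of the 37, against 0.384% of all. Several of these members lie in clusters of related genes, so their promoters are not independent, and a match describes letters only.

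The Ugt2b genes, whose products conjugate steroids, bile acids and drugs, made up most of the Ugt signal. They lie between positions 86889767 and 87424203 of chromosome 5 (GRCm38) and summed to 1156 (1139 to 1174) CPM in library 1 and 906 (885 to 927) CPM in library 2. Ugt2b36 was the highest member of library 1, at 352 (342 to 362) CPM, and was at 308 (296 to 321) CPM in library 2. Ugt2b5 was at 253 (245 to 262) and 302.5 (290.4 to 315) CPM, so that in library 2 the intervals of the pair overlapped. Ugt2b5 was the single Ugt2b gene whose level was higher in library 2. Ugt2b1 was at 263 (254 to 271) CPM in library 1 and at 145 (137 to 154) CPM in library 2, a ratio of 1.81 (1.70 to 1.94). With the mitochondrial limit set at 10%, which left 62 and 152 cells, Ugt2b1 was at 131 and 77.55 CPM, and Ugt2b5 in library 1 at 167 CPM. Ratios have 3 UMIs added to both sums, while their exact intervals are for the UMIs as counted.

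Among the others of this cluster, Ugt2b34 was at 149 and 87.2 CPM and Ugt2b35 at 98.5 and 54.9 CPM, which were 1.71 (1.57 to 1.87) and 1.79 (1.61 to 2.00) times higher in library 1. The largest Ugt2b difference was that of Ugt2b38, at 38.9 (35.8 to 42.3) CPM in library 1 and 8.25 (6.37 to 10.5) CPM in library 2. It was thus 4.54 times higher in library 1 (3.64 to 6.20). Ugt2b37 was counted with 23 and 2 UMIs only. The neighbouring Ugt2a3, which acts on bile acids, was at 115 and 127 CPM, and differed by a ratio of 1.10 (1.02 to 1.20). At the 10% mitochondrial limit, Ugt2b35 was at 56.9 and 27.65 CPM, Ugt2b34 in library 2 at 48.1 CPM, Ugt2b38 in library 2 at 5.41 CPM and Ugt2a3 in library 1 at 67.3 CPM. Ugt2a1 and Ugt2a2, which share their 3′ exons and are known from the olfactory epithelium, had no UMI in any barcode. Reads from those exons cannot be given to a single gene, so this lack of UMIs is not the level of their RNA.

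The Ugt3a genes on chromosome 15 use other sugars than glucuronic acid. Ugt3a1 was at 62.0 (57.9 to 66.2) and 48.0 (43.3 to 53.1) CPM, and Ugt3a2 at 42.5 (39.2 to 46.1) and 63.4 (57.9 to 69.2) CPM. The pair therefore stood in opposite order in the libraries, Ugt3a2 being 1.49 times higher (1.32 to 1.68) in library 2 and Ugt3a1 1.29 times higher (1.14 to 1.46) in library 1. This did not hold at the 10% mitochondrial limit, where Ugt3a2 was at 52.8 and 39.1 CPM and Ugt3a1 at 40.4 and 24.65 CPM, both higher in library 1.

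The 9 Ugt1a genes, which include the bilirubin-conjugating Ugt1a1, were nearly uncounted, with sums of 9.40 (7.88 to 11.1) and 6.35 (4.71 to 8.37) CPM. They are first exons spliced to a shared 3′ end on chromosome 1. In 8 of them every annotated transcript had all of its last 300 bases in exons of the other Ugt1a genes, and Ugt1a7c had 1 or more transcripts outside them. Reads from that 3′ end cannot be given to 1 gene, so these values are not the level of Ugt1a RNA in hepatocytes. In library 1 Ugt1a9 had the most UMIs, 44 against 2 in library 2. In library 2 Ugt1a1 and Ugt1a6a had the most, 16 each, against 13 and 21 in library 1.

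The highest sulfotransferase of library 1 was Sult2a8, which sulfates bile acids in mouse liver, and in library 2 it stood level with Sult1a1. Sult2a8 was at 273 (265 to 282) CPM in library 1 and 182 (172 to 191) CPM in library 2, a ratio of 1.5 (1.42 to 1.60). That order turned when the level in B-like cells, given below as background, was subtracted, which left 62.2 and 106 CPM. This subtraction takes background to be an equal share of UMIs in shallow and deep cells, which was not tested. At the 10% mitochondrial limit the levels were nearly equal, at 262 and 259.7 CPM. Sult1a1, the phenol sulfotransferase, was at 126 (120 to 132) and 182 (173 to 192) CPM, and was 1.44 times higher (1.35 to 1.55) in library 2. Sult1d1, known for catecholamines and eicosanoids, was at 26.7 (24.1 to 29.5) CPM in library 1 and 102 (95.2 to 109) CPM in library 2. Its ratio of 3.81 (3.38 to 4.34) in favour of library 2 was the largest among the 14 members in that direction.

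Sult1b1, which sulfates thyroid hormones and lies next to Sult1d1 on chromosome 5, was at 34.0 (31.0 to 37.1) and 27.7 (24.1 to 31.6) CPM. These neighbours therefore differed between the libraries in opposite directions, although at the 10% mitochondrial limit Sult1b1 was at 29.0 and 29.5 CPM. Sult5a1, whose substrate is not known, was at 26.0 (23.5 to 28.8) and 13.3 (10.9 to 16.1) CPM and 1.91 times higher in library 1 (1.57 to 2.45). At the 10% mitochondrial limit it was at 17.6 and 21.0 CPM, higher in library 2. Sult1c2 was at 8.07 and 8.25 CPM. The estrogen sulfotransferase Sult1e1 had 0 and 1 UMI. Of the 7 other Sult2a genes of the hydroxysteroid sulfotransferase cluster on chromosome 7, Sult2a2 had 10 and 13 UMIs, Sult2a7 1 and 2 UMIs, and the other 5 none in any barcode. Of the 60-base stretches in the last 300 bases of their transcripts, 71.8% for Sult2a2, 71.4% for Sult2a5 and 29.05% for Sult2a4 also occur in transcripts of other Sult2a genes. Reads from there cannot be given to 1 gene, so their counts are not the level of their RNA. For Sult2a3, which shares no such stretch, a count of 0 allows up to 0.211 and 0.381 CPM in these cells.

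**Figure D1:**
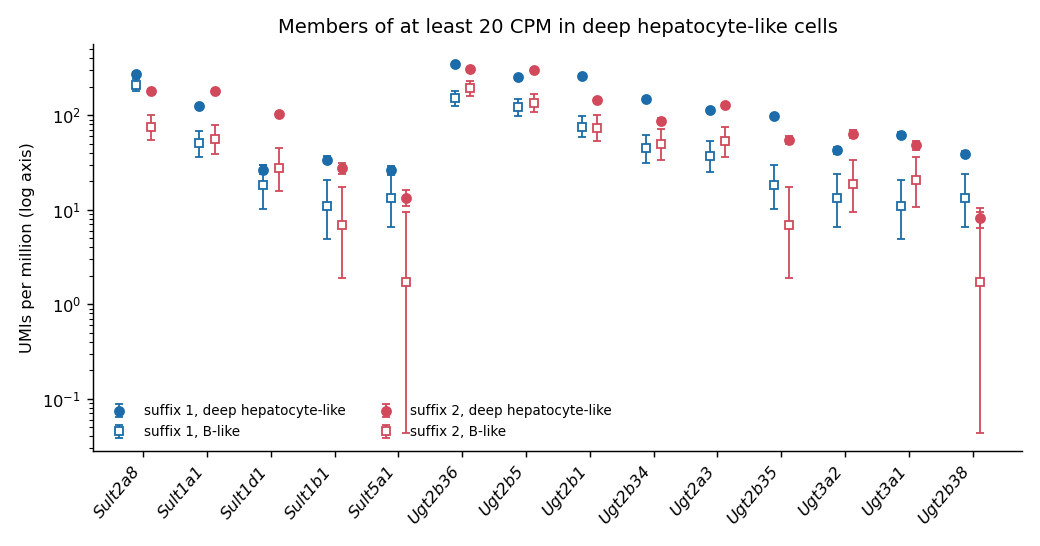
Level of each of the 14 members that reached 20 CPM, in UMIs per 1000000 UMIs on a log axis, in deep hepatocyte-like cells (filled) and B-like cells (open) of library 1 (blue, suffix 1) and library 2 (red, suffix 2); bars are exact Poisson 95% intervals. Deep hepatocyte-like levels run from 8.25 CPM for Ugt2b38 in library 2 to 352 CPM for Ugt2b36 in library 1, and for Sult2a8 in library 1 the B-like level of 211 CPM lies close to the hepatocyte-like level of 273 CPM.

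Over all genes with at least 20 UMIs in deep cells of both libraries together, 4.44% were at least 2-fold higher in library 2 and 3.55% at least 2-fold higher in library 1. Of the 43 members, 22 had that many UMIs, of which 3 (13.6%) were past the fold in library 2 and 4 (18.2%) in library 1. Only Sult1d1 and Ugt2b38 among these 7 reached 20 CPM. The others rested on few UMIs: Ugt1a9, Ugt1a5 and Ugt2b37 had 44, 24 and 23 UMIs in library 1 and 2, 3 and 2 in library 2, and Ugt1a1 and Sult2a2 had 13 and 10 against 16 and 13. Ugt1a9, Ugt1a5 and Ugt2b37 thus passed the UMI minimum only through the library in which they were higher. With at least 100 UMIs, only Sult1d1 and Ugt2b38 were past the fold. Ugt1a9 had the largest of these ratios, 5.20 (3.17 to 103.5) in favour of library 1 with 3 UMIs added, from 3.09 and 0.254 CPM as counted. Counts of the Ugt1a genes and Sult2a2 are, as said above, not the level of their RNA. The interval of the Sult2a2 ratio, 0.953 to 5.99, included no difference. The median log2 ratio of library 2 over library 1 was -0.25 for the 22 members and -0.01 for all 11565 genes.

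**Figure D2:**
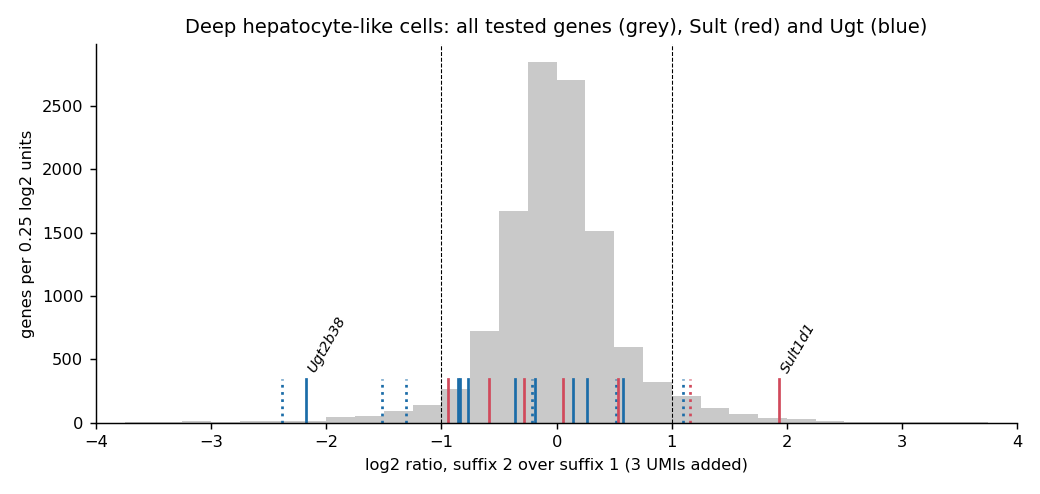
Log2 ratio of library 2 (suffix 2) over library 1 (suffix 1) in deep hepatocyte-like cells for 11565 genes (grey histogram) and for the 22 Sult (red) and Ugt (blue) members with at least 20 UMIs. Lines are dotted where a member had fewer than 100 UMIs over both libraries, and dashed lines mark a 2-fold difference. Sult1d1 lies at 1.93 and Ugt2b38 at -2.18, and every other solid line is within 2-fold.

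Genes that supply or serve these reactions were read beside the members. Of 39 listed genes, 36 were in the matrix and 35 had enough UMIs: 7 for the sulfate donor, 5 for the glucuronic acid donor, 5 hydrolases, 14 regulators and 4 exporters of conjugates. None was 2-fold higher in library 1, and 1, Cebpa, in library 2, at a ratio of 70.7 (log2 6.14). The regulators include nuclear receptors known to act on Sult and Ugt genes, such as Nr1i2, Nr1i3 and Hnf4a.

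In droplet data, RNA released from broken cells gives UMIs in cells that do not make it. B-like cells, which should lack most members, served as the reading of that background, with 195 and 157 cells and a median of 3602 and 3047 UMIs. Members with at least 20 UMIs over both cell types were called above B-like cells when the intervals did not overlap. In library 1 this held for 12 of 19 members (all genes 17.6%) and in library 2 for 14 of 15 (all genes 17.1%). At the 10% mitochondrial limit, with 62 and 152 deep cells, these were 7 of 14 (all genes 19.8%) and 9 of 13 (all genes 18.6%). Sult1d1 in library 1, at 26.7 CPM, overlapped its B-like level of 18.1 (10.1 to 29.8) CPM, and Sult5a1, at 26.0 (23.5 to 28.8) CPM, narrowly overlapped its B-like level of 13.3 (6.62 to 23.7) CPM. Ugt2b38 in library 2, at 8.25 CPM, overlapped its B-like level of 1.72 (0.0435 to 9.58) CPM. In library 2 Sult1d1 was clear of the background, at 102 CPM against 27.5 (15.7 to 44.7) CPM.

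Sult2a8 had a high background in library 1, at 211 (181 to 244.5) CPM in B-like cells against 273 CPM in deep hepatocyte-like cells, and 193 CPM without the B-like cell with most UMIs. T or NK-like cells of the same library held less, at 65.9 (57.5 to 75.1) CPM. In library 2 its B-like level was 75.7 (55.0 to 102) CPM against 182 CPM. B-like cells were shallower, with medians of 3602 and 3047 UMIs against 27087 and 13328 in deep hepatocyte-like cells. Subtraction in CPM takes background to be an equal share of UMIs at these depths, which was not tested. The levels left, and their order between the libraries, hold under that assumption only. Subtracting the B-like level left 185 and 342 CPM of the Sult sums and 897 and 595 CPM of the Ugt sums. Done for single members, it moved 14 of 28 levels by over 1.5 times. It left 8.59 and 74.6 CPM of Sult1d1, 25.7 and 6.53 CPM of Ugt2b38, 201 and 116 CPM of Ugt2b36, 132 and 167 CPM of Ugt2b5, 75.5 and 125 CPM of Sult1a1 and 12.8 and 11.6 CPM of Sult5a1. In library 2 Ugt2b36 then lay below Ugt2b5 and Sult1a1. The order of the libraries turned for Sult2a8 and for Ugt2a3, of which 77.65 and 73.7 CPM were left. For Ugt2b36 the B-like level was 151 (125 to 180) and 193 (159 to 232) CPM, and for Ugt2b5 122 and 136 CPM.

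To compare cells of unequal depth, each was thinned to 5000 UMIs. A Ugt2b36 UMI was then found in 82.7% (79.3 to 85.8%) and 79.8% (76.0 to 83.2%) of deep hepatocyte-like cells, against 98.0% and 96.5% before thinning. Only 45 and 20 B-like cells had that depth, and 150 and 137 shallower ones were left out. Their share was 35.6% and 60%, and 47.2% and 50.3% of all B-like cells unthinned. Sult2a8 was found in 64.7% (60.6 to 68.7%) and 51.0% (46.6 to 55.4%), against 60% (44.3 to 74.3%) and 35.0% (15.4 to 59.2%) of B-like cells, so that its share of cells could not be told from the background in either library. Sult1a1 was found in 46.0% and 54.5% of hepatocyte-like and 28.9% and 30% of B-like cells.

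The share of cells with Sult1d1 was 13.3% (10.6 to 16.4%) in library 1, beside 15.6% (6.49 to 29.5%) of B-like cells, and 41.4% (37.1 to 45.8%) in library 2, beside 15% (3.21 to 37.9%). Its order between the libraries followed that of the CPM. Ugt2b1 was found in 70.7% and 44.9% of cells, and Ugt2b38 in 14.9% (12.04 to 18.2%) and 3.70% (2.24 to 5.71%), beside 4.44% (0.543 to 15.2%) and 5% (0.127 to 24.9%) of B-like cells, the latter being 1 of 20 cells. Unthinned, Ugt2b38 was found in 8.95% (6.63 to 11.8%) of deep hepatocyte-like and 0.637% (0.0161 to 3.50%) of B-like cells of library 2. Between cells, Sult2a8 was the most uneven member, with a variance of 1.71 and 1.99 times the mean of its thinned counts. The 45 and 20 B-like cells of that depth were no more even, at 2.89 and 1.99 times the mean. Ugt2b36, which has a higher level, had a variance of 1.08 and 1.03 times its mean, where counts spread at random over cells give 1.

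Hepatocytes differ along the liver lobule, and a zonation score was used to order the deep cells. The score is the percentage of pericentral UMIs among the UMIs of 12 pericentral and 8 periportal genes, none of them a member. Each library was cut into tertiles (3 equal groups) of the score, which are ranges and not cell types. Cyp2e1, a pericentral gene of the score, ran from 74.4 to 775 CPM and from 101 to 735 CPM between the lowest and the highest tertile. Of the periportal genes of the score, Sds fell from 600.1 to 323 CPM and from 732 to 552 CPM, and Cyp2f2 was at 2063 and 2014 CPM in library 1 and at 1311 and 987 CPM in library 2. Median depth fell with the score, from 31516 to 20826 and from 18147 to 9264 UMIs, and its part in the results below was not tested.

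Sult2a8 had the widest span over the tertiles. Its levels in the lowest, middle and highest pericentral tertile were 191, 248 and 420 CPM in library 1, and 90.0, 167 and 348 CPM in library 2. The highest tertile was thus 2.19 times (2.03 to 2.38) and 3.85 times (3.37 to 4.45) the lowest. Sult1d1 went the same way in both libraries, from 19.7 over 28.4 to 34.4 CPM and from 81.1 over 97.8 to 142 CPM, with ratios of 1.74 (1.35 to 2.28) and 1.75 (1.47 to 2.07). Its levels were higher in library 2 in each tertile.

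Sult1a1 ran in the other direction, from 147 to 104 CPM in library 1 and from 207 to 160 CPM in library 2, and was 1.40 and 1.29 times higher in the lowest tertile. Ugt2b38 did likewise in library 1, from 47.9 over 36.2 to 29.8 CPM, a ratio of 0.631 (0.495 to 0.776). In library 2 it fell from 10.8 to 5.47 CPM on 65 UMIs, where the interval of 0.233 to 1.03 included no difference. Ugt2b1 was higher in the highest tertile, at 341 against 221 CPM in library 1 and 169 against 130 CPM in library 2.

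Ugt2b36 was flat, at 359, 341 and 354 CPM in library 1 and 316, 304.5 and 300.2 CPM in library 2, and the intervals of both ratios, 0.919 to 1.06 and 0.857 to 1.05, included no difference. Ugt2a3 changed direction between the libraries, from 99.7 to 126 CPM in library 1 and from 138 to 104 CPM in library 2. Past a fold of 1.5, 3 of 16 members in library 1 were higher in the highest tertile (Ugt2b1, Sult1d1 and Sult2a8), against 5.39% of all genes, and 1 in the lowest tertile (Ugt2b38), against 3.7%. In library 2 these were 2 of 15 (Sult1d1 and Sult2a8), against 11.1%, and 1 of 15 (Ugt2b38), against 3.56%. Median log2 ratios were 0.21 and 0.03 for members and 0.04 and 0.11 for all genes.

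**Figure D3:**
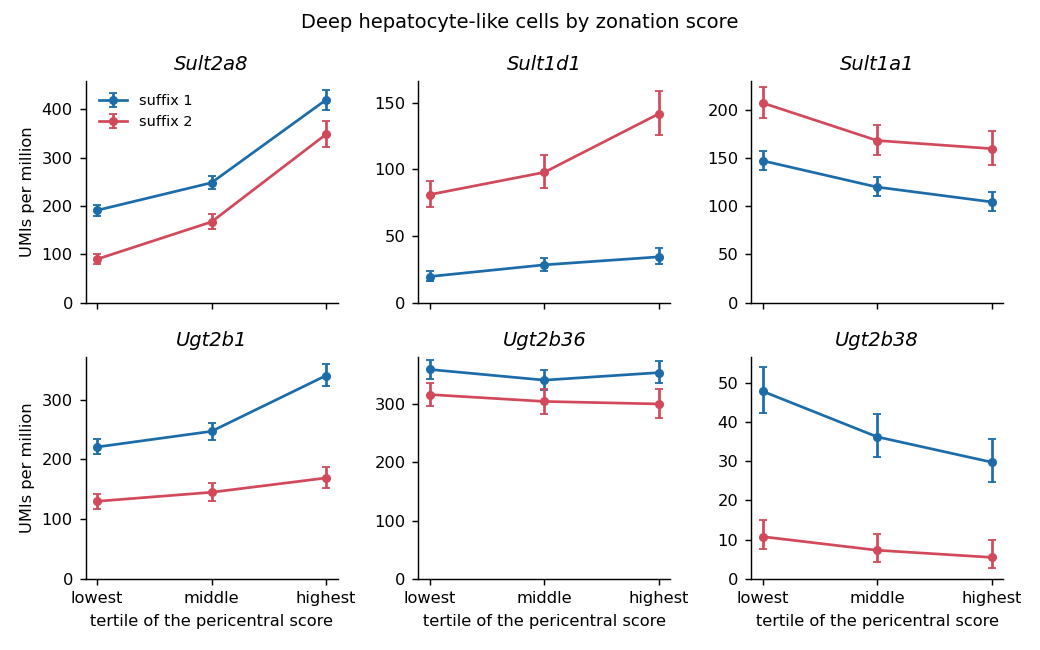
Levels of 6 members in UMIs per 1000000 UMIs across tertiles of the pericentral score in deep hepatocyte-like cells of library 1 (blue, suffix 1) and library 2 (red, suffix 2), with exact Poisson 95% intervals. Sult2a8 rises from 191 to 420 and from 90.0 to 348 CPM, while Ugt2b36 stays between 300.2 and 359 CPM.

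Hepatocyte-like droplets were most numerous at low depth. There were 7211 and 2574 with 500 to under 2000 UMIs, 1049 and 767 with 2000 to under 5000, 68 and 186 with 5000 to under 10000, and 482 and 328 with 10000 or more. Their median mitochondrial share moved with depth, from 1.72 to 17.5% in library 1 and from 3.48 to 16.6% in library 2 between the lowest and the highest range, and its part was not tested.

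Summed Sult levels were higher in shallow droplets, at 988 (966 to 1010) against 488 (476 to 500) CPM in the deepest droplets of library 1 and 720 (688 to 753) against 490.5 (474 to 508) CPM in library 2. Sult2a8 carried most of this, running over the 4 depth ranges from 657 over 679 and 437 to 267 CPM in library 1, and from 349 over 292 and 257 to 166 CPM in library 2. Sult1d1 ran from 71.6 over 88.5 and 49.1 to 25.9 CPM in library 1. In library 2 it was at 133, 138 and 143 CPM before it fell to 93.8 CPM. Library 2 stayed the higher of the libraries for Sult1d1 in all 4 ranges, and library 1 for Sult2a8.

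Sult1a1 ran from 161 to 126 CPM in library 1 and from 177 to 181 CPM in library 2. The Ugt sum was 1642 CPM in the shallowest droplets of both libraries and 1380 and 1141 CPM in the deepest. From 2000 to under 5000 UMIs it was 1207 (1167 to 1248) CPM in library 1 and 1355 (1307 to 1405) CPM in library 2. Library 2 was thus the higher in that range, with intervals apart. From 5000 to under 10000 UMIs library 1 was the higher, at 1523 (1413 to 1639) against 1202 (1143 to 1263) CPM. Ugt2b36 ran from 527 to 351 and from 507 to 295.5 CPM, and Ugt2b5 from 412 to 251 and from 503 to 293 CPM. Ugt2b35 did not follow them, and was lower in the shallowest droplets of library 1, at 57.8 against 98.6 CPM, and of library 2, at 46.45 (38.7 to 55.3) against 55.8 (50.2 to 61.8) CPM, where the intervals overlapped. Ugt2b34 was lower there in library 1, at 111.5 against 150 CPM, and higher in library 2, at 111 against 92.7 CPM. Ugt2b38 was at 30.3 against 39.3 CPM in library 1 and at 2.95 against 8.69 CPM in library 2.

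Against all deep cells, 4 of 22 members of library 1 were at least 2-fold higher in the shallowest droplets (Sult2a8, Sult1d1, Sult2a2 and Ugt1a1), where 5.99% of all genes were, and 1 (Ugt1a6a) was higher in deep cells, where 17.4% were. The ratios of Sult2a8 and Sult1d1 were 2.40 (2.31 to 2.51) and 2.68 (2.35 to 3.06). Sult2a2, Ugt1a1 and Ugt1a6a rested on few UMIs, at 28, 25 and 2 in the shallowest droplets and 10, 13 and 21 in deep cells. In library 2, 1 of 17 members (Ugt1a1, on few UMIs) was higher in shallow droplets, against 3.82% of genes, and 1 (Ugt2b38) in deep cells, against 9.23%. The interval of the Ugt1a1 ratio, 0.838 to 4.58, included no difference. Sult2a8 reached 1.92 (1.77 to 2.09) in library 2. The median log2 ratio was 0.19 and 0.39 for members and -0.22 and -0.14 for all genes.

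**Figure D4:**
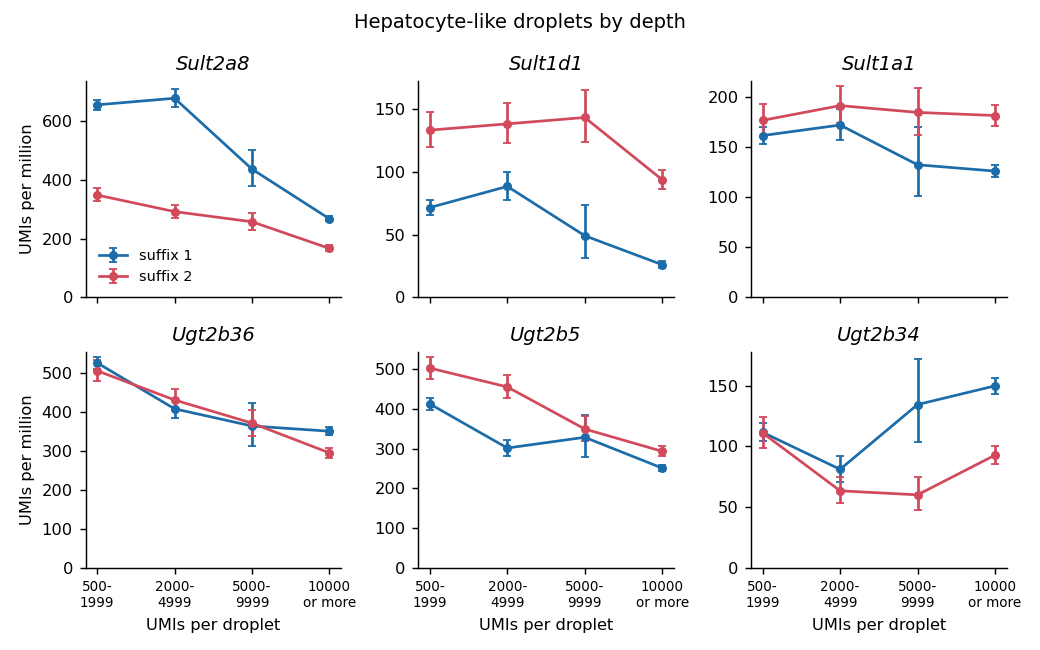
Levels of 6 members in UMIs per 1000000 UMIs in hepatocyte-like droplets of 4 depth ranges, for library 1 (blue, suffix 1) and library 2 (red, suffix 2), with exact Poisson 95% intervals. Sult2a8 falls from 657 to 267 and from 349 to 166 CPM between the shallowest and the deepest droplets, and Ugt2b34 in library 1 lies higher in the deepest droplets, at 150 CPM, than in the shallowest, at 111.5 CPM.

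Other cell types were gated droplet by droplet on marker lists. They comprised 342 and 532 Kupffer or macrophage-like, 129 and 157 endothelial-like, 30 and 15 cholangiocyte-like, 15 and 22 conventional dendritic-like and 651 and 575 T or NK-like cells, beside 195 and 157 B-like, 293 and 127 erythroid-like, 129 and 50 neutrophil-like and 74 and 61 plasmacytoid dendritic-like cells, 3 types of 18 to 52 cells in each library, and 858 and 410 unnamed or mixed droplets. No gated type had markers of another type among its 10 leading genes, and for the stellate or fibroblast-like cells, as for the hepatocyte-like cells, none of their own markers was among them either.

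Sult1a1 was the member with the broadest cell range. It was at 151 (114 to 197) and 150 (92.7 to 229) CPM in cholangiocyte-like cells, 108 (96.1 to 120) and 116 (105 to 127) CPM in the Kupffer or macrophage-like group, and 101 (63.1 to 152) and 89.2 (58.8 to 130) CPM in conventional dendritic-like cells. Endothelial-like cells held 90.2 (68.8 to 116) and 73.8 (54.6 to 97.6) CPM. T or NK-like cells held 20.8 (16.2 to 26.2) and 27.0 (21.2 to 33.9) CPM. Against B-like cells, at 50.6 (36.5 to 68.4) and 56.8 (39.1 to 79.7) CPM, the intervals were apart for cholangiocyte-like and Kupffer or macrophage-like cells in both libraries and for endothelial-like cells in library 1.

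Members were also given per 1000 Alb UMIs, as a level relative to another hepatocyte RNA. Sult1a1 stood at 3.22 (3.08 to 3.37) and 4.33 (4.11 to 4.56) per 1000 Alb UMIs in deep hepatocyte-like cells and at 2.07 and 2.27 in T or NK-like cells. It was at 12.9 (11.5 to 14.4) and 9.94 (9.04 to 10.9) in the Kupffer or macrophage-like group, 14.8 (9.28 to 22.4) and 11.0 (7.25 to 16) in conventional dendritic-like cells, 10.8 (8.11 to 14.0) and 17.4 (10.7 to 26.5) in cholangiocyte-like cells and 8.83 (6.74 to 11.4) and 5.55 (4.11 to 7.34) in endothelial-like cells. All 4 types thus lay above T or NK-like cells and above deep hepatocyte-like cells. For endothelial-like cells of library 2, the interval overlapped that of deep hepatocyte-like cells. B-like cells lay above T or NK-like cells as well, so that order is not particular to the 4 types.

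Ugt2b36 behaved differently, at 8.99 and 7.33 per 1000 Alb UMIs in deep hepatocyte-like cells and between 10.2 and 13.7 in every other gated type of library 1. In library 2 the other types lay between 7.68 and 15.6, with wide intervals for the smaller groups. Shallow hepatocyte-like droplets were at 14.9 (14.5 to 15.4) and 13.1 (12.4 to 13.8). Sult2a8 was uneven between types in which it should not be made. In library 1 it stood at 16.4 (14.1 to 19.0) per 1000 Alb UMIs in B-like and 6.56 (5.72 to 7.48) in T or NK-like cells, against 6.98 (6.76 to 7.20) in deep hepatocyte-like cells and 18.6 (18.1 to 19.1) in shallow hepatocyte-like droplets. In library 2 these were 5.65 (4.11 to 7.59), 2.67 (2.14 to 3.29), 4.32 (4.10 to 4.55) and 8.98 (8.41 to 9.57). The B-like reading of its background is thus not that of every other type.

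**Figure D5:**
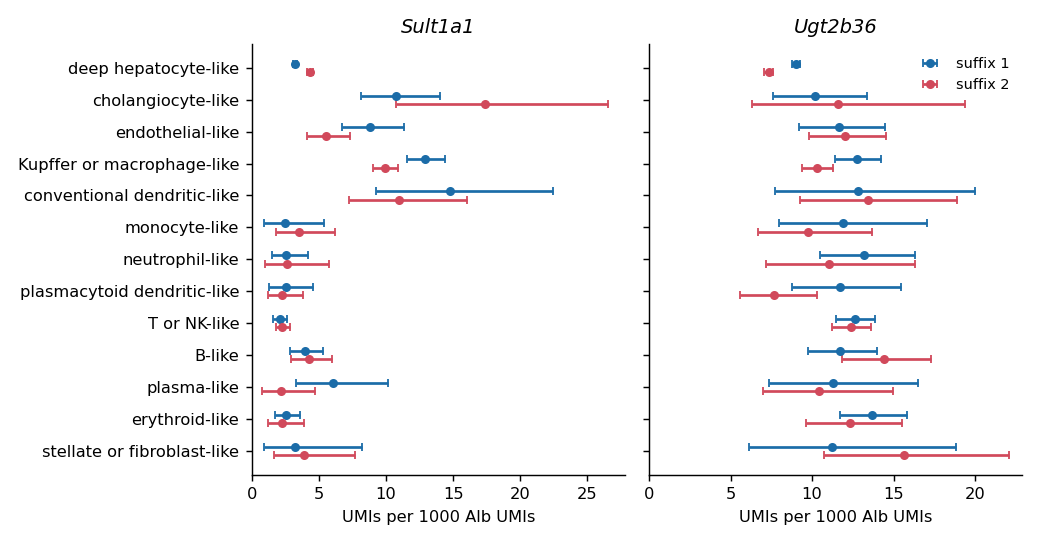
UMIs of Sult1a1 (left) and Ugt2b36 (right) per 1000 Alb UMIs in each gated cell type of library 1 (blue, suffix 1) and library 2 (red, suffix 2), with exact Poisson 95% intervals. Sult1a1 spans 2.07 to 14.8 in library 1, with cholangiocyte-like, endothelial-like, Kupffer or macrophage-like and conventional dendritic-like cells on the right, whereas Ugt2b36 lies between 8.99 and 13.7 in that library.

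A few members were highest outside the hepatocyte-like cells. Ugt8a encodes the galactosyltransferase that makes galactosylceramide, a lipid best known from myelin. It was at 30.3 (15.1 to 54.1) and 49.9 (20.1 to 103) CPM in cholangiocyte-like cells, from 11 UMIs in 5 of 30 cells and 7 UMIs in 3 of 15 cells. Without the cell with most UMIs the levels were 21.1 and 25.9 CPM. Deep hepatocyte-like cells held 2 and 0 UMIs of Ugt8a, the other gated types together 1 UMI in each library, and B-like cells none, where a count of 0 allows up to 3.62 and 5.16 CPM.

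Sult2b1, which sulfates cholesterol and pregnenolone, was counted with 6 and 3 UMIs in cholangiocyte-like cells, or 16.5 (6.05 to 35.9) and 21.4 (4.41 to 62.5) CPM. T or NK-like cells held 22 and 13 UMIs, or 6.53 (4.09 to 9.88) and 4.75 (2.53 to 8.12) CPM, and deep hepatocyte-like cells 1 and 0. In plasma-like cells it was found in 5 of 18 cells of library 1, at 14.2 (4.60 to 33.0) CPM, and in 0 of 28 cells of library 2, where a count of 0 allows up to 7.51 CPM.

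In stellate or fibroblast-like cells, Ugt2b35 in library 2 stood at 81.8 (37.4 to 155) CPM on 9 UMIs and Sult1b1 in library 1 at 39.6 (8.17 to 116) CPM on 3 UMIs, above but overlapping the deep hepatocyte-like levels of 54.9 and 34.0 CPM. The other members above B-like cells outside the hepatocyte gate were Ugt2b5 in neutrophil-like cells of library 1, at 204 (161 to 256) CPM, and in stellate or fibroblast-like cells of library 2, at 282 (192 to 400) CPM, and Sult1d1 in neutrophil-like cells of library 2, at 89.9 (46.5 to 157) CPM. Each of these was seen in 1 library, and neutrophil-like and stellate or fibroblast-like cells were the shallowest gated types, with medians of 1864 to 2494 UMIs. The hepatocyte marker list also took more of their UMIs than of B-like cells, where it took 3.81 and 4.14%. It took 5.05 and 5.57% in neutrophil-like and 5.38 and 6.50% in stellate or fibroblast-like cells, so the B-like level may understate their background. Unnamed or mixed droplets of library 1 held 527 (507 to 548) CPM of Sult2a8, more than the deep hepatocyte-like cells, and those of library 2 held 205 (189 to 222) CPM.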

How the data were processed

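Raw UMI counts of each gene in each barcode were deposited by the authors as 1 joined matrix of 10x Genomics 3′ libraries, which per the file headers came from Cell Ranger 7.1.0. The submitters' processing notes also name bcl2fastq 2.20.0, STAR 2.7.2a and build mm10. The sources used here do not give the annotation, the cell calling, intron counting or any thinning at joining.

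Droplets of at least 500 UMIs, 200 genes and at most 25% of UMIs from 13 mitochondrial genes were kept. A cell type other than hepatocyte was called from at least 3 detected markers and 0.2% of UMIs (erythroid 10%), at 3 times the next type, with T and NK read as 1 type. Gate thresholds were set after the counts had been seen. No doublet caller was run, so doublets remain. Counts were summed per library and cell type, scaled to UMIs per 1000000 UMIs (CPM), and given exact Poisson or, for shares of cells, exact binomial 95% intervals, which the number of UMIs limits. Ratios had 3 UMIs added to both sums and needed 20 UMIs, and a count of 0 was taken to allow 3 UMIs. No label ties a barcode suffix to a sample, so the planned knockout to wild-type comparison was not made, and no test was run.

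All rows matching the symbol rule are members. Those of at least 20 CPM in deep hepatocyte-like cells, or highest in another type at 20 CPM or more, are given with values, and a few further members were named after their values were seen. Members, marker lists and the partner list were chosen with earlier results of these data known. Gene positions came from GENCODE M21 and promoters from RefSeq on GRCm38.p6. Both are references and may differ from the annotation behind the counts. Ratios and intervals were tried on simulated Poisson counts, which hold no spread between cells or animals beyond counting error. Alternatives were other mitochondrial limits, depth limits, scalings, gates, UMI minimums, Leiden clusters and subtraction of the B-like level. Python 3.11.15, numpy 2.4.6, scipy 1.17.1, pandas 2.3.3, scikit-learn 1.9.0, igraph 0.11.9 and matplotlib 3.10.9 were used. Some genes of the lists are counted but are not reported here by name.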

Additional observations from a re-analysis of the deposited data

Results flagged for a closer look

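Droplets over the 25% mitochondrial limit, which enter no comparison above, also held members. In 5675 such droplets of library 1 and 8886 of library 2, summed Sult levels were 196.7 and 128.2 CPM, and summed Ugt levels 1282.2 and 1447.0 CPM.

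Of these droplets, 4713 and 7988 passed the hepatocyte gate, with median mitochondrial shares of 43.9% and 51.3%. Per 1000000 UMIs without the mitochondrial genes, they held 3070 and 3493 of Ugt, against 1664 and 1348 in deep hepatocyte-like cells, while Sult stood at 489 against 595 and at 304 against 606. Ugt2b5 was 2.45 (2.35 to 2.56) and 3.07 (2.94 to 3.21) times its deep level and Ugt2b36 2.08 (2.00 to 2.17) and 2.83 (2.71 to 2.96) times. Sult1a1 was at 0.568 (0.511 to 0.626) and 0.373 (0.340 to 0.407) of its deep level and Sult1b1 at 0.783 (0.649 to 0.921) and 0.468 (0.374 to 0.576). In library 1 the intervals of Sult1d1, at 1.03 (0.851 to 1.22), and Sult5a1, at 0.903 (0.737 to 1.08), included no difference, and Sult2a8 was at 0.926 (0.874 to 0.979). In library 2 these were at 0.506, 0.615 and 0.627. Ugt2b38 was at 1.12 (0.963 to 1.28) and 0.822 (0.587 to 1.17), which also included no difference. The median log2 ratio of all tested genes was -0.49 and -1.03, so most genes were lower there too. Among the 5 Sult genes of at least 20 CPM, the log2 ratio was below that median for Sult1a1 (-0.81) in library 1 and for Sult1a1 (-1.42) and Sult1b1 (-1.10) in library 2. Damaged cells, free RNA and whole cells cannot be told apart in these droplets.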

How the results depend on the processing

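With 1 library per suffix and no replicates, only counting error is covered, and the level of small groups such as the 15 cholangiocyte-like cells of library 2 rests on few cells. No paired analysis was possible because each group has 1 sample and no suffix is tied to a sample. The library with the higher Sult sum changed at the 50% mitochondrial limit, from 2000 UMIs and in Leiden clusters. For single members it changed for Sult5a1 and Ugt3a2 at the 10% limit, and for Sult2a8 (log2 ratio -0.59 to 0.77) and Ugt2a3 with the B-like level subtracted. Read from the sums and from member ratios with 3 UMIs added, it changed for no other sum or member of at least 20 CPM in the alternatives that gave a value, although Sult1b1 stood level at the 10% limit. Leaving out every hepatocyte-like cell with any UMI of another list left 0 cells in both libraries, so it gave no value.

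Summed Sult levels of 495 and 517 CPM (library 1, then 2) became 482 and 479.5 at a 50% mitochondrial limit, 585 and 552 from 2000 UMIs, 534 and 563 as means over cells, 595 and 606 without mitochondrial UMIs, 547 and 540 in Leiden clusters, 481 and 491 at an 8% hepatocyte gate (chosen after seeing the data), and 185 and 342 with the B-like level subtracted. In library 2 they were also 704 at a 10% limit and 490.5 from 10000 UMIs. Summed Ugt levels of 1385 and 1151 CPM became 1020 and 956 at the 10% limit, 1421 and 1234 at 50%, 1356 and 1196 from 2000 UMIs, 1664 and 1348 without mitochondrial UMIs, 1309 and 1126 in Leiden clusters, and 897 and 595 with the B-like level subtracted. In library 1 the mean over cells was 1443. The 10% limit left 62 and 152 cells, gave 7 of 14 members above B-like cells in place of 12 of 19 and 9 of 13 in place of 14 of 15, and moved 12 of 28 single levels by over 1.5 times, from 0.500 (Ugt2b1, library 1) to 1.58 (Sult5a1, library 2) of their value. The cause was not tested. Subtracting the B-like level from single members, chosen after seeing the data, left 0.228 (Sult2a8, library 1) to 0.875 (Ugt2b35, library 2) of their value and moved 14 of 28 by over 1.5 times. The unequal depth of B-like and deep hepatocyte-like cells was not allowed for. None of the other settings run on single levels moved 1 that far.

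Sult1d1 and Ugt2b38 stayed past the fold of 2 in every alternative with a value. With at least 100 UMIs they were the only members past it, 1 in each direction against 4 in library 1 and 3 in library 2, and at the 10% limit Sult1d1 was the only 1 higher in library 2. Ugt2b34 and Ugt2b35 passed the fold at the 10% limit (log2 -1.08 and -1.03), Ugt2b34 and Ugt2b1 with the B-like level subtracted (log2 -1.49 and -1.40), and Sult5a1 at the 50% limit, from 10000 UMIs and in Leiden clusters (log2 -1.06 to -1.01).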
